A study of Rattus norvegicus with 12 samples.

Results

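The heat shock genes described here are 10 rat genes of the heat shock response, namely Hsf1, Hspa1a, Hspa4, Hsp90ab1, Hsph1, Hspb1, Hspd1, Hspe1, Dnajb1 and Bag3, followed through days 2, 4 and 7 after a thermal injury. They were taken by name, as the probe sets whose platform annotation names exactly 1 gene. All 10 were on the array with 12 of the 15866 probe sets, 2 each for Hsp90ab1 and Dnajb1 and 1 each for the other 8 genes, out of 10411 genes in all. Each sample set RNA of a thermal injury (burn) sample against RNA of a sham control sample on Affymetrix RAE230A arrays, and each value is a log2 ratio, centred so that 0 is the median probe set of its array. Each of days 2, 4 and 7 has 3 samples, 9 in all. The samples of day 1 are left out because their identifiers do not match those of the other days. The sources used here give no tissue, strain, age, sex or burn size. They also leave unsaid how many animals stand behind each day, so the p-values measure only the spread between these samples, which may be technical. The labels place injury RNA in the Cy5 channel and sham RNA in the Cy3 channel without stating which one was divided by the other, so injury over sham is the likely direction, and values above 0 are taken to mean more RNA after injury. For arrays, their number limits the precision.

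Heat shock proteins are molecular chaperones, which bind unfolded proteins and help them fold or keep them from clumping. In cells under heat or protein damage, the transcription factor HSF1 is released from its chaperones, forms trimers and binds heat shock elements, inverted repeats of the letters GAA, in the promoters of chaperone genes. HSP70 works with HSP40 partners that bring it clients and with exchange factors that release them, while HSP90 acts on kinases and receptors near their folded form. Messages of HSP70, HSP27 and HSP105 are known to be induced within hours of heat in many tissues.

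For the mean of the 3 days, 0 of the 10 genes passed an adjusted p of 0.05 (limma, Benjamini-Hochberg adjustment over 10411 genes), against 0.0384% of all genes, and 0 of the 10 had an unadjusted p under 0.05, against 8.98% of all genes. Their mean ratios ran between -0.15 for Hspa4 and 0.30 for Hspb1. The median size of the mean ratio, taken without its sign, was 0.063 for the 10 genes and 0.11 over all genes. Over the 15866 probe sets, the ratios of the 9 arrays were hardly correlated, with Pearson's r between -0.10 and 0.15 over 36 pairs (median 0.01). Pairs of the same day are among these, so the samples of a day shared little over the whole array. The clearest differences lay between days, in Hspe1, the small co-chaperonin of mitochondria, and in Hsp90ab1, the constitutive cytosolic HSP90, and neither passed over all genes. Hspb1, which encodes the small heat shock protein HSP27, had the widest spread.

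**Figure D1:**
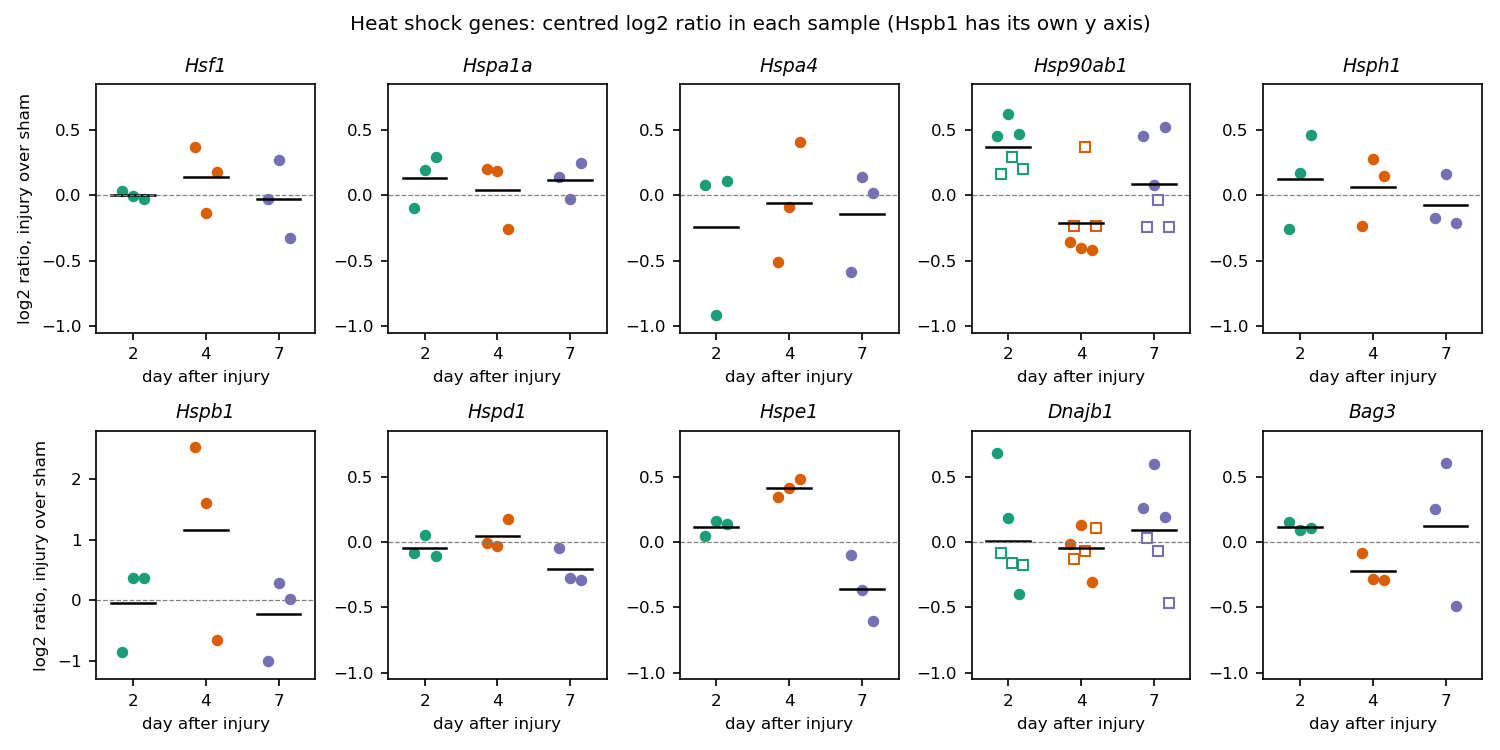
Centred log2 ratios of injury over sham in every sample, by day after injury, with 1 panel per gene. Filled circles are the first or only probe set, open squares the second probe set, and horizontal bars the mean of the gene over the 3 samples of a day. Most points lie between -0.5 and 0.5, while Hspb1 reaches 2.54 at day 4 on an axis of its own.

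The promoters of Hspe1 and Hsp90ab1, with the clearest differences between days, and of Hspb1, with the widest spread, are shown first. They are RefSeq windows of the GRCr8 build that span 250 bases before to 50 after a transcript start. Capitals mark matches to GAANNTTC or TTCNNGAA, which are each their own reverse complement and so cover both strands, and which are paired GAA units of a heat shock element. The window for Hspe1 is chr9:64084077-64084376 on the plus strand, that for Hspb1 is chr12:26432252-26432551 on the minus strand, and that for Hsp90ab1 is chr9:22930173-22930472 on the plus strand.
Hspe1: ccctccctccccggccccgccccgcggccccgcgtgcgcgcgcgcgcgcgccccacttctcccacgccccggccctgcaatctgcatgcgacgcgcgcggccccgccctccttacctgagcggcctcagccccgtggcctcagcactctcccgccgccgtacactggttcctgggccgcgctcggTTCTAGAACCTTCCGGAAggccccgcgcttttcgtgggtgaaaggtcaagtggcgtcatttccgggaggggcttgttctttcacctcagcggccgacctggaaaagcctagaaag
Hspb1: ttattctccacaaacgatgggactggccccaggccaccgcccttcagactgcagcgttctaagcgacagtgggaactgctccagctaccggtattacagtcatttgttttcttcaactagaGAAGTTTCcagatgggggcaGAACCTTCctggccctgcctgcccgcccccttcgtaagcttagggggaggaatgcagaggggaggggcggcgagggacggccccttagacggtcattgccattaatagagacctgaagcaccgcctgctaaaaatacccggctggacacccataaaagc
Hsp90ab1: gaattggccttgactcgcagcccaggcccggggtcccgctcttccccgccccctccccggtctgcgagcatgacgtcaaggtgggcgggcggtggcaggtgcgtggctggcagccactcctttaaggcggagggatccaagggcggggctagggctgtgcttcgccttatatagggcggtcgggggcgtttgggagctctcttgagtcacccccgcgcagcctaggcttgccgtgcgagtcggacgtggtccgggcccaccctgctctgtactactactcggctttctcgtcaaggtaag
In the Hspe1 window 3 matches overlap by 3 bases each and form a single run that begins 65 bases before the start. Hspb1 has 2 separate matches, at 129 and 109 bases before the start. The Hsp90ab1 window holds neither pattern, which says only that these letters are not in this window.

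In the same RefSeq build, Hspd1 lies at chr9:64073610-64084332 and Hspe1 beside it at chr9:64084327-64087415, Hsp90ab1 at chr9:22930249-22935929, Hspb1 at chr12:26430640-26432301 and Hspa1a at chr20:3859756-3863800. Of the 9 genes with a promoter in the table, 6 held at least 1 match, against 15.4% of 27457 promoters of the same length. Hspd1, Hspe1 and Hsph1 each had 3 matches, against 0.35% of promoters with 3 or more. Hspb1 and Dnajb1 had 2 and Bag3 had 1, while Hspa1a, Hspa4 and Hsp90ab1 had 0. The windows of Hspd1 and Hspe1, neighbours on chromosome 9 transcribed in opposite directions, share 211 bases, so their 3 matches are the same sites. A match is a description of the letters and not a bound site.

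Hsf1 encodes the master transcription factor of the response, and its activity is known to be set mainly by trimer formation and phosphorylation rather than by its message. The Hsf1 ratio was 0.032, -0.0044 and -0.024 in the 3 samples of day 2, 0.37, -0.14 and 0.18 at day 4, and -0.027, 0.27 and -0.32 at day 7. The days overlap and each holds values on both sides of 0. The mean over the 3 days was 0.04 (SE 0.09), a 1.03-fold ratio with a 95% interval of 0.89 to 1.18 (limma, adjusted p = 0.918). Before centring, the array signals behind each Hsf1 ratio could be recovered as whole numbers in lowest terms. With the likely direction of injury over sham, they were for example 2346 (injury) and 1849 (sham) for sample 1 of day 4. For sample 3 of day 7 they were 890 and 997 in the same order. If the division ran the other way, the injury and sham labels of these numbers would swap.

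Hspa1a is the gene of the stress-inducible cytosolic HSP70, the most used marker of a heat shock response. Its ratio was -0.093, 0.20 and 0.30 at day 2, 0.20, 0.19 and -0.26 at day 4, and 0.14, -0.028 and 0.25 at day 7. Each day has 2 samples above 0 and 1 below, and no day stands apart. Over the 3 days Hspa1a was at 1.07-fold, with a 95% interval of 0.94 to 1.22 (limma, adjusted p = 0.752). Hspa1a has a near-identical neighbouring copy, Hspa1b, on chromosome 20, so a probe set named for Hspa1a alone may also pick up the copy, and its value is uncertain in that respect.

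Another probe set, 1368247_at, is annotated to both Hspa1a and Hspa1b and is therefore not counted among the 12. It gave 0.28, -0.10 and 0.11 at day 2, -0.32, -0.42 and -0.33 at day 4, and 0.24, 0.55 and 0.14 at day 7. All samples of day 4 lay below 0 and below every sample of the other days, which the Hspa1a probe set did not show. Probe set 1368247_at was also the dimmer of these. The median over arrays of the log2 of its smaller recovered number was 8.94, against 10.67 for the Hspa1a probe set and 10.33 for the median probe set. Of all genes, day 4 did not overlap with day 2 in 14.4% and with day 7 in 19.7%, in either direction. Day 7 stood at 0.31 ± 0.21 (SD, n = 3), against -0.36 ± 0.06 (SD, n = 3) at day 4, a difference of 0.67 that did not pass over the 15866 probe sets (limma, adjusted p = 0.307, unadjusted p = 0.0087).

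Hsph1 and Hspa4 encode HSP110 proteins, large relatives of HSP70 that act as its nucleotide exchange factors, with Hsph1 (HSP105) heat-inducible. Hsph1 gave -0.26, 0.17 and 0.47 at day 2, -0.23, 0.28 and 0.15 at day 4, and -0.17, 0.16 and -0.21 at day 7. Each day holds values on both sides of 0, and the days overlap. The mean of Hsph1 was 0.04 (SE 0.10, 1.03-fold, 95% interval 0.88 to 1.21, limma adjusted p = 0.926). Hspa4 ranged from -0.92 in sample 2 of day 2 to 0.41 in sample 3 of day 4, with 5 of 9 samples above 0. Its SD within days was 0.49, against 0.38 for the median gene, and its mean was -0.15 (SE 0.15, 0.90-fold, 95% interval 0.71 to 1.15, limma adjusted p = 0.802).

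Dnajb1 encodes the heat-inducible HSP40 that delivers clients to HSP70. Its probe set 1383302_at gave 0.68, 0.19 and -0.40 at day 2, -0.01, 0.13 and -0.31 at day 4, and 0.26, 0.60 and 0.19 at day 7. The other, 1388722_at, gave -0.081, -0.16 and -0.17 at day 2, -0.13, -0.067 and 0.11 at day 4, and 0.032, -0.067 and -0.47 at day 7. At day 7 the probe sets of this gene stood on opposite sides of 0, with means of 0.35 ± 0.22 and -0.17 ± 0.26 (SD, n = 3 each), so the gene mean of 0.09 hides a disagreement. Over the 3 days the gene was at 1.01-fold (95% interval 0.88 to 1.16, limma adjusted p = 0.965).

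Bag3 encodes a co-chaperone of HSP70 that helps send damaged proteins to autophagy and is itself a target of HSF1. Its ratio was 0.16, 0.091 and 0.11 at day 2, -0.081, -0.29 and -0.29 at day 4, and 0.25, 0.61 and -0.49 at day 7. All samples of day 4 lay below 0 and all of day 2 above it, while those of day 7 spanned a wider range than the other days together. The difference of day 4 from day 2 was -0.34 (SE 0.27, 95% interval -0.97 to 0.29, limma adjusted p = 0.815). The narrow scatter of Bag3 at day 2 (SD 0.03) and the wide scatter at day 7 (SD 0.56) share a single estimate of spread in this fit.

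Hsp90ab1 encodes HSP90 beta, the constitutive cytosolic HSP90, which holds HSF1 inactive in unstressed cells. It had the smallest unadjusted p of the 10 genes at day 2. Its 2 probe sets, annotated to the same sequence record, lay on opposite sides of 0 at day 7. Probe set 1375335_at gave 0.46, 0.63 and 0.47 at day 2, -0.36, -0.41 and -0.42 at day 4, and 0.45, 0.081 and 0.53 at day 7. All 3 samples of day 4 were below 0 and all samples of the other days above it. Probe set 1375336_at gave 0.17, 0.30 and 0.20 at day 2, -0.24, 0.37 and -0.23 at day 4, and -0.24, -0.038 and -0.24 at day 7. It shared the positive day 2 values, but at day 7 its 3 samples lay below 0 while those of 1375335_at lay above.

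Averaged over its probe sets, Hsp90ab1 was 1.29-fold at day 2 (0.37 ± 0.08, SD, n = 3, 95% interval 1.07 to 1.56-fold), 0.86-fold at day 4 (-0.21 ± 0.17) and 1.07-fold at day 7 (0.09 ± 0.06). The day 2 ratio had an unadjusted p of 0.013 and an adjusted p of 0.545 (limma). Its difference between day 4 and day 2 was -0.58 (SE 0.17, unadjusted p = 0.0076, adjusted p = 0.536). With 1375335_at on its own, day 4 stood at -0.39 ± 0.03 against 0.52 ± 0.09 at day 2, a difference of -0.91 (limma over 15866 probe sets, adjusted p = 0.488, unadjusted p = 0.0012). With 1375336_at on its own the same difference was -0.25 (adjusted p = 0.833), so the size of the day 4 difference rests mainly on 1 probe set.

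Hspd1 and Hspe1 encode HSP60 and HSP10, the barrel and the lid of the chaperonin that folds proteins inside mitochondria, and they are transcribed from a shared promoter region. Hspe1 gave 0.044, 0.16 and 0.14 at day 2, 0.35, 0.41 and 0.48 at day 4, and -0.10, -0.37 and -0.61 at day 7. The 3 days do not overlap, with day 4 highest and day 7 lowest. In folds, Hspe1 was at 1.08 at day 2 (0.12 ± 0.06, SD, n = 3), 1.33 at day 4 (0.41 ± 0.07) and 0.78 at day 7 (-0.36 ± 0.25).

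The Hspe1 difference between day 7 and day 4 was -0.77 (SE 0.18, 0.59-fold, 95% interval 0.44 to 0.78), the smallest p of any of the 10 gene averages in any comparison of days, and it did not pass over all genes (limma, adjusted p = 0.25, unadjusted p = 0.0026). Letting the variance prior follow brightness brought the adjusted p to 0.083, also above the threshold. Against 0, the unadjusted p of Hspe1 was 0.012 at day 4 and 0.023 at day 7, with adjusted p of 0.483 and 0.385 (limma).

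Hspd1 had a smaller range. Its ratio was -0.087, 0.051 and -0.10 at day 2, -0.01, -0.027 and 0.17 at day 4, and -0.044, -0.28 and -0.29 at day 7. All samples of day 7 were below 0 and below every sample of day 4, with a difference of -0.25 (95% interval -0.63 to 0.13, limma adjusted p = 0.608).

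**Figure D2:**
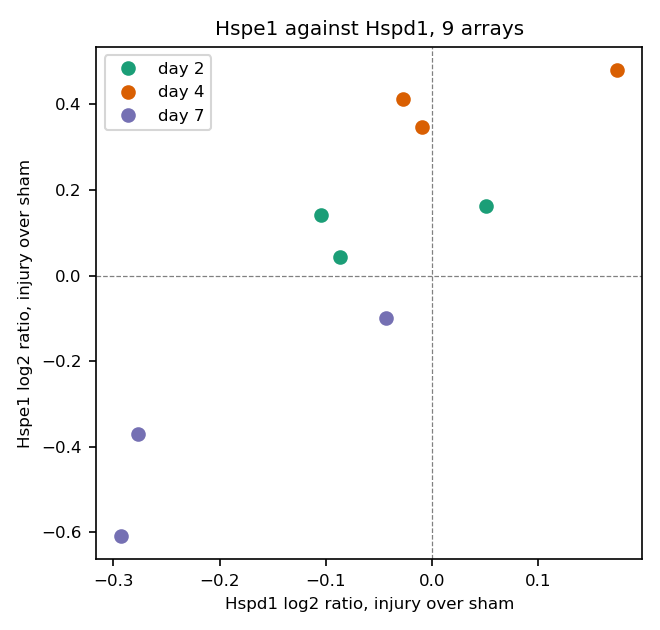
Log2 ratio of Hspe1 (y axis) against that of Hspd1 (x axis), with 1 point per array coloured by day. The points run from the lower left, where samples 2 and 3 of day 7 lie, to the upper right. There, sample 3 of day 4 has the highest ratio of both genes (0.17 and 0.48). Sample 1 of day 7 is at -0.044 for Hspd1 and -0.10 for Hspe1.

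Over the 9 arrays the ratios of Hspd1 and Hspe1 were correlated, with Pearson's r of 0.88 (exact permutation p = 0.0021, adjusted over 3 pairs 0.0064, two-sided) and Spearman's rho of 0.87 (exact permutation p = 0.0045, adjusted 0.014). The permutations here and for the pairs below exchange arrays freely across days, so differences between days enter these p-values. As deviations from the day means r was 0.77, for which no p was computed. Without the 2 arrays farthest from the median of Hspd1, r was 0.61 over the other 7 (exact permutation p = 0.136) and no longer passed. Leaving out those arrays also narrows the range of Hspd1 and lowers the number of arrays. That alone can lower r and raise p, so what the relation rests on cannot be told from it. Hspa1a with Hsph1 had r of 0.12 (exact permutation p = 0.762, adjusted 0.762), with rho of 0.28 (exact permutation p = 0.463, adjusted 0.463), r of 0.080 over 7 arrays and 0.13 as deviations from day means. Hspa1a with Dnajb1 had r of -0.46 (exact permutation p = 0.21, adjusted 0.315) and rho of -0.65 (exact permutation p = 0.067, adjusted 0.1). Without the 2 arrays farthest from the median of Hspa1a, that r was -0.93 over 7 arrays (exact permutation p = 9.92e-04), and as deviations from day means it was -0.55.

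Among all 10410 other genes, those whose ratios were most like Hspd1 over the 9 arrays were Mcrip2 (Pearson's r 0.98), Atp5f1c (0.96) and Decr1 (0.96). Those most like Hspa1a were Ube3a (0.94), Dgkh (0.92) and Amhr2 (0.92). These are the highest of 10410 values over 9 arrays that share their centring, given as a description.

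Hspb1 encodes HSP27, a small heat shock protein that holds unfolding proteins and stabilises actin filaments. Its ratio was -0.85, 0.37 and 0.37 at day 2, 2.54, 1.60 and -0.65 at day 4, and -1.01, 0.28 and 0.027 at day 7. Samples 1 and 2 of day 4 were far above every other sample, sample 3 of the same day was below 0, and the days overlap. In lowest terms, and with the likely direction of injury over sham, the signals of sample 1 of day 4 were 773 (injury) and 136 (sham). Those of sample 2 were 1997 and 666, and those of sample 3 were 1096 and 1789. In the other 6 arrays the recovered numbers taken as sham ran from 886 to 2637. A recovered number can be smaller than the true signal by a common factor of the pair.

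The day 4 mean of Hspb1 was 1.16 ± 1.64 (SD, n = 3), a 2.24-fold ratio with a 95% interval of 0.93 to 5.42 (limma, adjusted p = 0.594, unadjusted p = 0.068). Without sample 3 the day 4 mean was 2.07, and without sample 1 it was 0.48. The SD within days was 1.10, against 0.38 for the median gene. The exocrine pancreas markers (18 of 21 measured) had medians of -0.015, 2.35 and 0.96 in samples 1 to 3 of day 4, with 9, 17 and 14 of the 18 above 0, so sample 1, which had the highest Hspb1 ratio, was the sample of that day with the lowest pancreas median. The epidermis markers (7 of 9 measured) had medians of 0.42, 0.14 and 0.025 in the same samples. Their medians were 0.22, 0.098 and -0.15 in samples 1 to 3 of day 2, and 0.21, 0.041 and 0.064 in those of day 7. On both of these days the epidermis median was highest in sample 1, where Hspb1 was lowest. The neutrophil markers (5 of 10 measured) had medians of 0.75, 2.14 and -0.17 there, with 4, 5 and 2 of the 5 above 0, so they were above 0 in both samples with a high Hspb1 ratio and below it in the sample where Hspb1 was below 0. Over the other 6 arrays the neutrophil medians ran from -0.39 to 1.12, and at day 7 they were 0.95, 0.98 and 1.12, where Hspb1 was at -1.01, 0.28 and 0.027. The part of other cell types in the Hspb1 ratio was not tested.

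**Figure D3:**
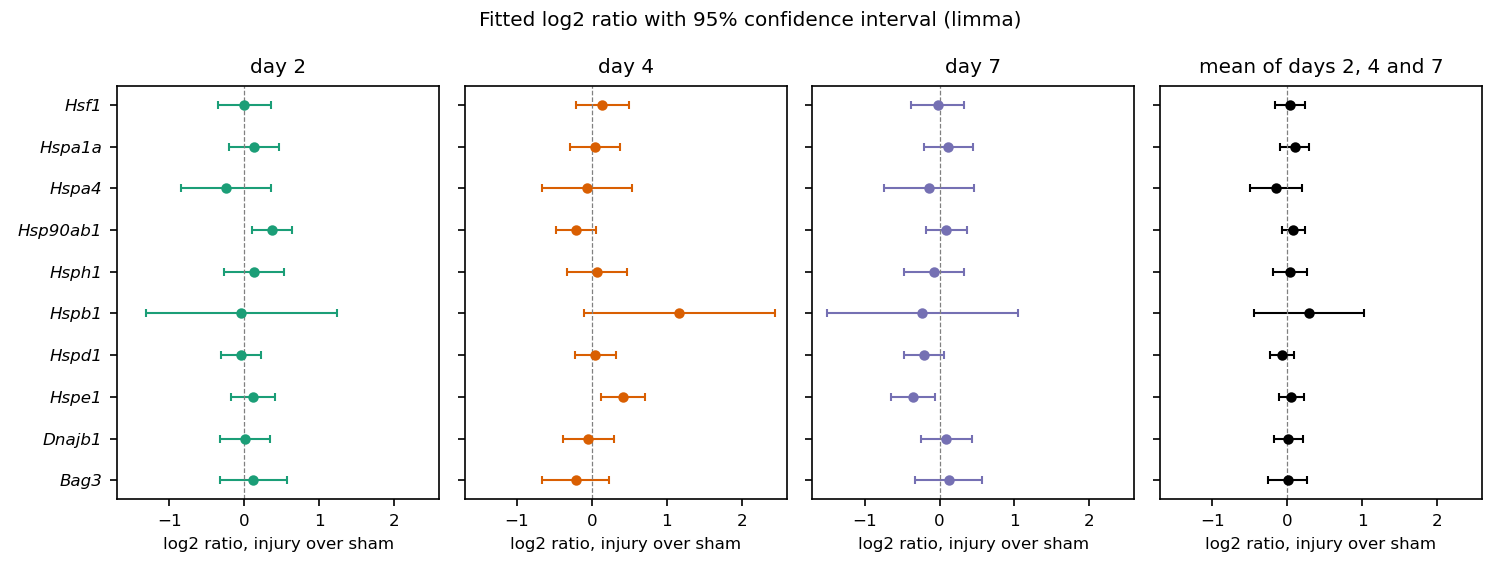
Fitted log2 ratio of injury over sham (points) with its 95% confidence interval (bars, limma) for each gene at days 2, 4 and 7 and for the mean of the 3 days. Over the 3 days every interval includes 0, and the interval of Hspa1a runs from -0.09 to 0.29.

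By day, 0 of the 10 genes passed at day 2, day 4 or day 7 (limma, adjusted p of 0.385 or more), and 0% of all genes passed on each of these days. At an unadjusted p under 0.05, 1 of 10 was higher at day 2 (Hsp90ab1, against 4.06% of all genes) and 0 lower (against 3.71%, and 7.77% in either direction). At day 4, 1 was higher (Hspe1, against 4.88%) and 0 lower (against 3.93%, and 8.81% in either direction). At day 7, 0 were higher (against 5.58%) and 1 was lower (Hspe1, against 5.36%, and 10.9% in either direction). Each share of 1 in 10 is close to its background.

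Between days, 0 of 10 passed in any pair of days, against 0% of all genes (limma). At an unadjusted p under 0.05, 1 of 10 was lower at day 4 than at day 2 (Hsp90ab1, against 3.95% of all genes), 1 at day 7 than at day 2 (Hspe1, against 3.66%) and 1 at day 7 than at day 4 (Hspe1, against 6.43%). In the F test over the 3 days, 0 of 10 passed, against 0% of all genes. Hspe1 (unadjusted p = 0.008, adjusted p = 0.435) and Hsp90ab1 (unadjusted p = 0.023, adjusted p = 0.457) were the 2 under an unadjusted 0.05 in the F test (limma), against 10% of all genes.

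The samples of day 4 and day 2 did not overlap in 3 of 10 genes, against 14.4% of all genes. Hspe1 was higher at day 4 (against 7.38%), and Hsp90ab1 and Bag3 were lower (against 7.03%). Day 7 and day 2 did not overlap in 2 of 10 (against 12.6%), with 0 higher at day 7 (against 5.48%) and Hsp90ab1 and Hspe1 lower (against 7.15%). Day 7 and day 4 did not overlap in 3 of 10 (against 19.7%), with Hsp90ab1 higher at day 7 (against 8.58%) and Hspd1 and Hspe1 lower (against 11.1%). All 3 samples lay above 0 for Hsp90ab1, Hspe1 and Bag3 at day 2 (against 13.8%) and for 0 genes below it (against 13.1%). At day 4, Hspe1 lay above 0 in all samples (against 18.3%) and Hsp90ab1 and Bag3 below (against 16.2%). At day 7, Hsp90ab1 lay above (against 15.6%) and Hspd1 and Hspe1 below (against 18%). These counts use gene averages, and for Hsp90ab1 at day 7 the average joins a probe set above 0 in all 3 samples with 1 below 0 in all 3. In Hsp90ab1, Hspe1 and Bag3, all samples of 1 day lay on the opposite side of 0 from all samples of another day, 3 of 10 genes against 13.3% of all genes.

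**Figure D4:**
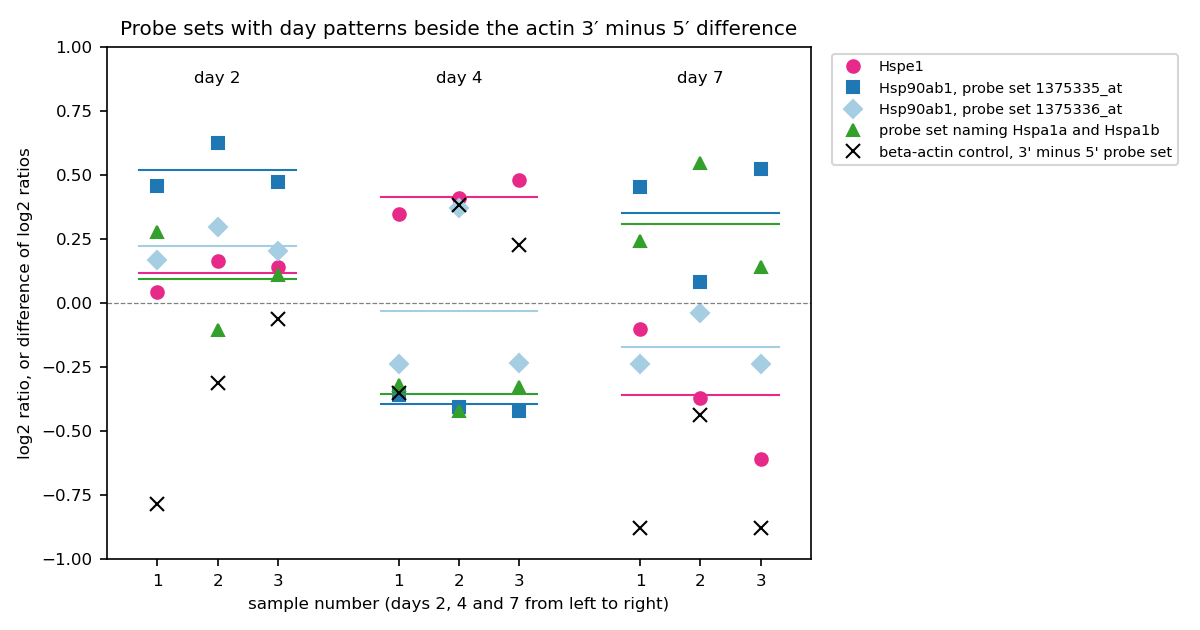
Log2 ratios of injury over sham in each sample for Hspe1, for the 2 probe sets of Hsp90ab1 and for the probe set that names both Hspa1a and Hspa1b, with short lines at the day means. Crosses are the ratio of the 3′ beta-actin control probe set minus that of the 5′ one. Hspe1 and the actin difference are highest at day 4 and lowest at day 7 by their day means, while 1375335_at and the probe set of both HSP70 genes are lowest at day 4.

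A measure of RNA quality also differed between days in its day means. For beta-actin, the log2 ratio of the 3′ control probe set minus that of the 5′ one was -0.79, -0.31 and -0.061 at day 2, -0.35, 0.38 and 0.23 at day 4, and -0.88, -0.44 and -0.88 at day 7. For GAPDH the same difference was -0.42, -0.19 and 0.11 at day 2, 0.14, 0.31 and -0.081 at day 4, and -0.39, -0.21 and -0.80 at day 7. The day means of both differences, like those of Hspe1, were highest at day 4 (actin 0.087) and lowest at day 7 (actin -0.73). By sample the actin days overlapped, with sample 1 of day 4 below samples 2 and 3 of day 2, while those of Hspe1 did not. Hspd1 had day means of -0.047, 0.046 and -0.20 at days 2, 4 and 7, the order of actin. Those of 1368247_at were 0.094, -0.36 and 0.31 on the same days, the reverse order. Bag3 had 0.119, -0.219 and 0.121, also the reverse, with days 2 and 7 almost equal. Probe set 1375335_at had day means of 0.52, 0.35 and -0.39 at days 2, 7 and 4, an order that is neither that of actin nor its reverse. The part of RNA quality in the ratios of Hspe1, Hspd1, Hsp90ab1, Bag3 and 1368247_at was not tested.

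Other cell types were followed with marker lists, since a bulk ratio cannot tell fewer cells of a type from less RNA per cell. Hepatocyte markers (19 of 20 measured) had array medians between -0.16 and 0.23. Exocrine pancreas markers stood at 2.35 and 0.96 in samples 2 and 3 of day 4 and between -0.24 and 0.32 in the other 7 arrays. Hspe1 was at 0.35 in sample 1 of day 4, where the pancreas median was -0.015, and at 0.41 and 0.48 in samples 2 and 3. Neutrophil markers had medians between -0.39 and 0.56 at day 2, between -0.17 and 2.14 at day 4 and between 0.95 and 1.12 at day 7. Macrophage markers (10 of 14) had medians between -0.35 and 0.53 over the 9 arrays, red cell markers (4 of 9) between -0.37 and 0.83, stellate cell and fibroblast markers (11 of 11) between -0.45 and 0.16, and skeletal muscle markers (10 of 10) between -0.63 and 0.15. Their part in the ratios of the heat shock genes was not tested.

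Of 119 other chaperone, co-chaperone and stress response genes on 10 overlapping lists, 99 were measured, and 0 passed for the mean of the 3 days or on any single day (limma). At an unadjusted p under 0.05, 4 were higher (against 4.64% of all genes) and 4 lower (against 4.34%) for the mean of the 3 days, which is 8.08% of the 99 against 8.98% of all genes. At day 2, 4 were higher and 1 lower, 5.05% of the 99 against 7.77% of all genes. At day 4, 6 were higher and 5 lower (11.1% against 8.81%), and at day 7, 5 were higher and 6 lower (11.1% against 10.9%). The median ratio of the 99 genes was 0.024 for the mean of the 3 days, with 58 of 99 above 0, against a median of 0.0027 over all genes, of which 50.5% were above 0.

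Among the small heat shock proteins (7 of 9 measured), Hspb6, which encodes the muscle-rich HSP20, gave 0.98, 0.49 and 1.15 at day 2, -0.043, -0.18 and -0.29 at day 4, and -0.13, -0.47 and -0.08 at day 7. All samples of day 2 were above those of the later days, at 0.87 ± 0.35 (SD, n = 3), and the day 2 ratio had an unadjusted p of 5.32e-04 and an adjusted p of 0.226 (limma). The lens crystallin Cryaa was at 1.31 ± 1.40 (SD, n = 3) at day 7. Of the HSP70 and HSP110 list (8 of 12), Hspa2, a testis-rich HSP70, had the lowest mean over the 3 days at -0.94 (SE 0.44, limma adjusted p = 0.574), with values from -2.48 to 1.27, while Hspa12b, an atypical HSP70 of blood vessel lining, was at 0.17 (SE 0.19, limma adjusted p = 0.82).

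Of the HSP40 list (23 of 26), 16 were above 0 for the mean of the 3 days, against 50.5% of all genes. Dnajc27 was above 0 in 8 of 9 arrays, at 0.63 (SE 0.24, limma adjusted p = 0.486). Dnajc4 was above 0 in 7 of 9 arrays, with a mean of 0.63 (SE 0.37, limma adjusted p = 0.646). The co-chaperone list (19 of 23) had 10 above 0 (against 50.5% of all genes) and a median of 0.02. In it, Unc45a, a myosin chaperone, was at -0.21 and Fkbp8, a mitochondrial immunophilin, at -0.24. The endoplasmic reticulum list (23 of 24) had 17 above 0 (against 50.5% of all genes) and a median of 0.037. At an unadjusted p under 0.05 (limma), this list had 3 genes higher (against 4.64% of all genes) and 2 lower (against 4.34%). Its member Xbp1, a transcription factor of the unfolded protein response, was at -0.41 (SE 0.13, limma adjusted p = 0.41), with 7 of 9 arrays below 0, and the oxidoreductase gene Ero1a was at -0.22.

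The cytosolic chaperonin and prefoldin list (13 of 14) has products that fold actin and tubulin. By day means, 8 of its members were above 0 at day 4 (median 0.1, against 51.0% of all genes). At day 7, 1 was (median -0.18, against 48.4%). In samples 1 to 3, 4, 8 and 10 of the 13 were above 0 at day 4, and 5, 4 and 2 at day 7. Its prefoldin subunit Pfdn6 gave -0.59, -0.18 and -0.23 at day 2, 0.41, 0.39 and 0.32 at day 4, and -0.41, -0.42 and -0.59 at day 7, with day 4 above 0 and both other days below it in all samples. Its adjusted p was 0.595, 0.494 and 0.304 at days 2, 4 and 7 (limma). The subunit Cct6a was at -0.58 ± 0.24 (SD, n = 3) at day 4.

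By their day means, mitochondrial chaperones and proteases other than Hspd1 and Hspe1 (11 of 12 measured) had 0 of 11 above 0 at day 2 (median -0.081). At day 4, 7 were above 0 (median 0.033), and at day 7, 4 were (median -0.16). Of all genes, 50.8%, 51.0% and 48.4% had day means above 0 on these days. In samples 1 to 3, 3, 6 and 2 of the 11 were above 0 at day 2. The counts were 5, 7 and 8 at day 4, and 6, 5 and 3 at day 7. The mitochondrial protease Yme1l1 was at -0.18 over the 3 days (SE 0.08, limma adjusted p = 0.574), with 8 of 9 arrays below 0, while Dnaja3, a mitochondrial HSP40, was at 0.10 (SE 0.09, limma adjusted p = 0.753), with 4 of 9 above 0. The mitochondrial HSP90 Trap1 was at -0.08 ± 0.35 at day 2, 0.28 ± 0.20 at day 4 and -0.21 ± 0.24 at day 7 (SD, n = 3 each), and the endoplasmic reticulum HSP90 gene Hsp90b1 was at -0.11 ± 0.38, 0.24 ± 0.06 and -0.08 ± 0.06 on the same days. Of 13 further heat-inducible genes, 8 were measured, among them the HSP70 partner St13 at -0.10 and the HSP90 immunophilin Fkbp4 at 0.10. Over the 3 days, 3 of the 8 were above 0, against 50.5% of all genes. The other heat shock factor list (3 of 4) had Hsf4 at 0.18 and the HSF1-binding Hsbp1 at 0.09, neither passing.

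**Figure D5:**
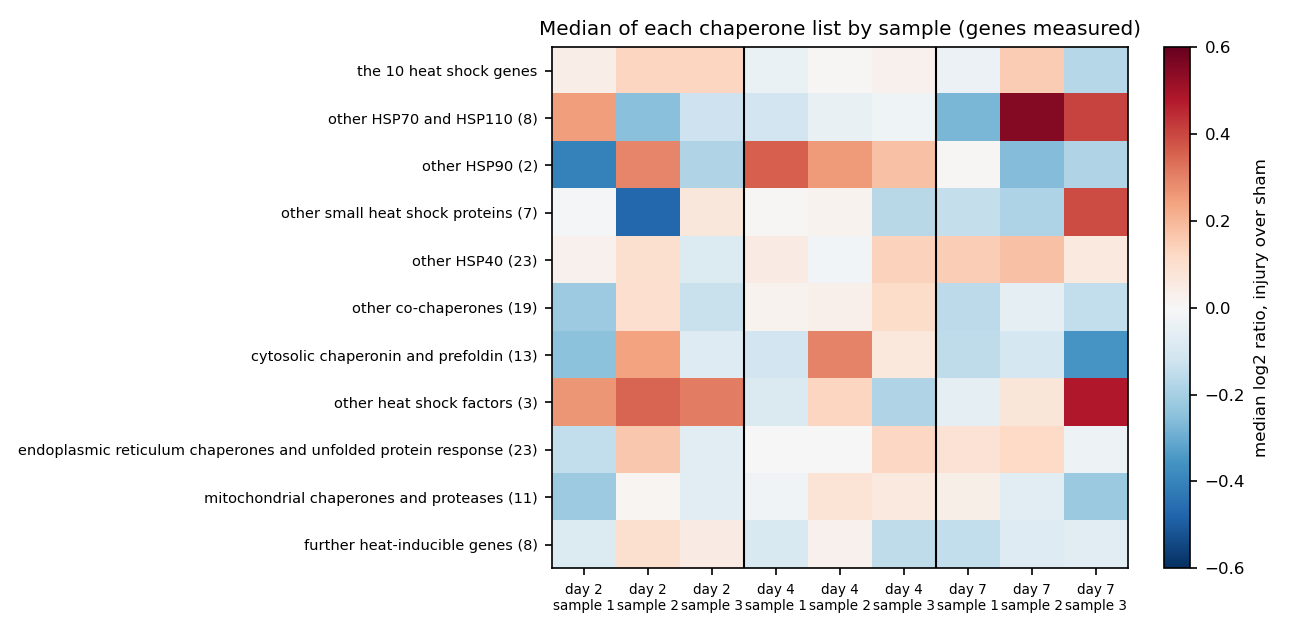
Median log2 ratio of injury over sham of each chaperone list (rows, with the number of genes measured) in each of the 9 samples (columns, days 2, 4 and 7 from left to right), blue below 0 and red above. The 10 heat shock genes of the first row have array medians between -0.17 and 0.15.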

How the data were processed

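RNA from 9 samples (days 2, 4 and 7, 3 each) was analysed. The deposited values are log2 ratios of 2 array signals, 1 per probe set and sample, and the sources used here do not say how the authors scaled the arrays. The 57 control probe sets were left out, and gene symbols came from the platform annotation. Array medians, between -0.13 and 0.16, were subtracted, and probe sets of 1 gene were averaged (10411 genes). Day means were fitted by lmFit and eBayes (limma 3.58.1, R 4.3.3, 6 residual degrees of freedom), adjusted over all genes, with a threshold of 0.05, and each probe set was also fitted on its own. Signals were recovered as whole numbers of at most 3000 whose log2 quotient equals the ratio within 6e-10, which held for between 66.4% and 69.4% of the probe sets of an array. Brightness was the median over arrays of the log2 of the smaller recovered number of each pair, with numbers of at most 20000. The fit was tested on simulated data. The members and lists were chosen with earlier results of these data known. Genes named beside the 10 were, per list, any that passed or otherwise the 2 with the smallest p for the mean of the 3 days, and the 3 most correlated with Hspa1a and with Hspd1. Alternatives were another variance prior, centring, probe sets, a filter on dim probe sets, a replicate block and leaving out each array.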

Additional observations from a re-analysis of the deposited data

Results flagged for a closer look

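In 3 of the heat shock genes, every sample of a day lay on 1 side of 0 and every sample of another day on the other side, and for each the difference itself was tested with limma over all genes and did not pass. Of all 10411 genes, 13.3% showed this in at least 1 pair of days. Hspe1 averaged -0.36 at day 7 and 0.41 at day 4, a difference of -0.77 (adjusted p = 0.25), and -0.36 at day 7 against 0.12 at day 2, a difference of -0.48 (adjusted p = 0.651). Hsp90ab1 averaged -0.21 at day 4 and 0.37 at day 2, a difference of -0.58 (adjusted p = 0.536), and 0.09 at day 7 against -0.21 at day 4, a difference of 0.30 (adjusted p = 0.517). Its probe sets went opposite ways in that last pair of days, with a difference of 0.75 for 1375335_at and -0.14 for 1375336_at, the second of which was below 0 in all 3 samples of day 7. Bag3 averaged -0.22 at day 4 and 0.12 at day 2, a difference of -0.34 (adjusted p = 0.815).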

How the results depend on the processing

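The count of heat shock genes that passed was 0 for the mean of the 3 days, for each day and for the difference between days under all 15 alternatives, and the smallest adjusted p of any member was 0.083, for Hspe1 at day 7 minus day 4 with a variance prior that follows brightness. Counts over all genes depended more on the setting. For the mean of the 3 days the 4 genes that passed became 31 with that prior, 2 with trimmed mean centring and 0 with the replicate block. They became 2 probe sets when each was tested on its own, and 8 genes without probe sets of a brightness under 8.68. Brightness is the median over arrays of the log2 of the smaller recovered number. At day 2 the count of 0 became 14 with that prior and 3 without the dimmest probe sets. At day 7 it became 3 with that prior and 1 by probe set, for day 7 minus day 4 it became 2 and 1, and for the difference between days 1 with that prior. Leaving out 1 array gave between 0 and 3 genes for the mean of the 3 days, 0 to 1 for day 2, day 4, day 7, day 4 minus day 2 and day 7 minus day 4, and 0 for day 7 minus day 2 and for the difference between days. Samples with the same number did not deviate together (r between -0.041 and 0.068 over 9 pairs), and the replicate block changed no call among the 10 genes.

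The correlation of Hspd1 with Hspe1 was 0.61 and no longer passed without the 2 arrays farthest from the median, and between 0.82 and 0.91 when 1 array was left out. That of Hspa1a with Dnajb1 did not pass over all 9 arrays (r of -0.46, exact permutation p adjusted over 3 pairs 0.315). It was -0.93 without the 2 farthest arrays, where only an unadjusted p was taken (exact permutation p = 9.92e-04). When 1 array was left out it was between -0.94 and -0.30, the strongest without sample 3 of day 4. Dnajb1 enters as the average of 2 probe sets that disagreed at day 7. That of Hspa1a with Hsph1 was between -0.17 and 0.34. The cause was not tested. Of 1064 single member values under alternatives, 1043 moved by less than the SD between samples and 21 by more, 16 of these in Hsp90ab1 or Dnajb1 when probe sets were taken on their own. Spread between samples limits these results, as 3 arrays a day allow an interval of 0.63 to 1.17-fold for Bag3 at day 4. The ratios of the 9 arrays were also hardly correlated over all probe sets (Pearson's r between -0.10 and 0.15 over 36 pairs).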
